A study of Mus musculus with 192 samples.

Results

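Hif1a, Vegfa and Ang are 3 of the 95 genes measured in single cells recruited to mouse skin wounds. They were picked by their names in a panel of 96 TaqMan assays. Hif1a was read by assay Mm00468869_m1, Vegfa by Mm01281447_m1 and Ang, which encodes angiogenin, by Mm00833184_s1. The cells were sorted from wounds on the back as negative for lineage markers and positive for GFP, and GFP marks cells of a donor mouse whose circulation had been joined by parabiosis to that of a wounded recipient. The recipient was either wild type (WT) or lacked CXCL12 in its endothelium (EKO), so the altered gene belonged to the host and not to the GFP-labelled donor. The sources used here do not give the Cre driver, the strain or age of the mice, the number of pairs or the day after wounding. Each genotype contributed 96 cells, with 48 cells under each of the title letters A and B. The labels speak of chips without naming them, and the 2 letters were read as chips, called set A and set B here.

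HIF1A is the oxygen-regulated subunit of hypoxia-inducible factor. Oxygen controls it mainly through degradation of the protein, so the level of its mRNA does not read the activity of the factor. Vegfa is a textbook HIF target and encodes a secreted growth factor that acts on endothelial receptors; in healing skin it is made by keratinocytes, macrophages and fibroblasts. Angiogenin is a secreted ribonuclease that can enter endothelial cells and act in the nucleus. It is not an angiopoietin, and in mice its gene shares a promoter with Rnase4 and has close copies elsewhere in the genome. The suffix of its assay marks primers and probe that lie in a single exon, so cDNA and genomic DNA cannot be told apart by design, and how far genomic DNA or the copies were read was not tested.

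The 250 bases before the annotated start of each gene are shown because they are where a HIF site would be sought first. They were taken from RefSeq on GRCm38.p6, and capitals mark the HIF core ACGTG or GCGTG read on either strand. The Hif1a window lies at chr12:73907617-73907866 on the plus strand, the Vegfa window at chr17:46032378-46032627 on the minus strand and the Ang window at chr14:51090827-51091076 on the plus strand.
Hif1a: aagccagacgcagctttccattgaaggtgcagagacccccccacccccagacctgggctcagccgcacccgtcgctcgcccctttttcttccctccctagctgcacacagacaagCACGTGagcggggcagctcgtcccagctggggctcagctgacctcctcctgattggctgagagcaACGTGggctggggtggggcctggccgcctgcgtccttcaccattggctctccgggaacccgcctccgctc
Vegfa: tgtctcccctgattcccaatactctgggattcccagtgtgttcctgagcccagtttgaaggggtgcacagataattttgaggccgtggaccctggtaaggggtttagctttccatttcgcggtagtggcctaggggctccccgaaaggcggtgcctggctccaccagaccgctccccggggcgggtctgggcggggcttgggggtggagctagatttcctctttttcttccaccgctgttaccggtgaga
Ang: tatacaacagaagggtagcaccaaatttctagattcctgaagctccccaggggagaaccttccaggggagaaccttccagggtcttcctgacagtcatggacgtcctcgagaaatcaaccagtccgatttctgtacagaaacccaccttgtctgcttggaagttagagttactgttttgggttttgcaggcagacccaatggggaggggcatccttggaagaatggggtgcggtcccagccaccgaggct
The Hif1a window held 3 matches, of which the first pair are the same palindrome read on both strands, beginning at position -135 from the start. The Vegfa and Ang windows held 0 matches. A second annotated Vegfa start, inside the gene at chr17:46025164-46025413, had 2 matches in its window. Of all 32851 windows of this length in the table, 38.6% held at least 1 match, so a match here is common. The absence of these letters from a window of this length says nothing about sites farther away.

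The values are Ct, the cycle at which a reaction crosses its threshold, so an earlier Ct means more template. A Ct of 40 was read as not detected. Of the 192 cells, 170 detected at least 10 assays and were kept, 93 WT and 77 EKO, while 3 WT and 19 EKO cells were left out. The kept EKO cells detected a median of 34 assays and the kept WT cells 21, and that gap runs beside every comparison of the genotypes. Cells are not replicates of a mouse and no animal is named, so each genotype counted as 1 sample and no test was made. Every interval given for a share is an exact Clopper-Pearson 95% interval and covers counting error only. By design the sorted cells carry the donor's Cxcl12 gene. Of its 2 assays, Mm00445552_m1 was detected in 100% of kept cells of both genotypes. The other, Mm00457276_m1, was detected in 8.60% of the WT and 16.9% of the EKO cells. The 2 assays thus differed widely, and how far the first read Cxcl12 mRNA was not tested.

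Cells fell into 3 classes. In 46 cells Col1a1, a fibrillar collagen of fibroblasts, had a Ct below 16, and these are called collagen-high. Another 71 cells were not collagen-high and detected Ptprc, which encodes the leukocyte antigen CD45. The remaining 53 cells did neither. Collagen-high cells detected a median of 6 of 7 mesenchymal markers, against 2 in Ptprc-detecting cells and 1 in the rest. The classes were not pure leukocytes and fibroblasts, since 31 of the 46 collagen-high cells also detected Ptprc, and both classes had a median of 2 of 5 leukocyte markers. Of the 6 endothelial markers, collagen-high cells detected a median of 1 and the other classes 0. The Col1a1 limit fell in a sparse range, with 1 cell between Ct 14 and 16 and 1 between 16 and 18. The cell just inside, at a Col1a1 Ct of 14.3, was an EKO cell with Vegfa at 22.9 and Ang at 20.5. The cell just outside, at 17.04, was a WT cell with no Vegfa and with Ang at 35.2. The next cells outside, at 18.04 and 18.2, had no Vegfa, with Ang undetected in the former and at 24.1 in the latter. The classes also differed in yield, with a median of 52 detected assays in collagen-high, 28 in Ptprc-detecting and 15 in the remaining cells.

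Hif1a was nearly ubiquitous. It was detected in 154 of 170 kept cells (90.6%, interval 85.2 to 94.5), with a lowest Ct of 11.3, a median of 17.3 and a highest of 23.9. All 46 collagen-high cells detected it, as did 68 of 71 Ptprc-detecting cells (95.8%) and 40 of the 53 remaining cells (75.5%, interval 61.7 to 86.2). It was thus missed mainly in the class with the fewest detected assays, and among the 30 cells with 10 to 15 detected assays only 19 had it. Every one of the 70 cells with 36 or more detected assays had Hif1a, in whichever class it lay.

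Its Ct was earliest in collagen-high cells, with a median of 15.60 (SD over cells 1.46), against 17.91 (SD 2.47) in Ptprc-detecting and 18.76 (SD 1.59) in the remaining cells. The difference between the first 2 classes was -2.31 cycles (set A -2.35, set B -2.31). The ranges overlapped, from 12.4 to 18.7 in collagen-high cells and from 11.3 to 23.9 in Ptprc-detecting cells. The earliest Hif1a Ct of all thus lay outside the collagen-high class. The difference moved with yield: it was 0.033 cycles after subtraction of the mean Ct of Actb and B2m, and 0.53 among cells with at least 36 detected assays. It was -0.93 with at least 24 assays and -0.52 after subtraction of the cell's median Ct. Even above 36 assays the yields were unequal, with a median of 52 in collagen-high and 39 in Ptprc-detecting cells. The sign and size of the Hif1a difference thus depended on how yield was handled.

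Vegfa divided the cells more sharply. It was detected in 86 of 170 kept cells (50.6%, interval 42.8 to 58.3), and its Ct ran from 16.8 through a median of 24.63 to 29.3. Of the collagen-high cells 44 of 46 detected it (95.7%, interval 85.2 to 99.5), against 26 of 71 Ptprc-detecting cells (36.6%, interval 25.5 to 48.9) and 16 of 53 remaining cells (30.2%, interval 18.3 to 44.3). The intervals of the collagen-high class and of each other class did not overlap, but they cover counting error over cells only. This was not particular to Vegfa. The metalloproteinase inhibitor Timp1 had intervals of 88.5 to 99.9 in collagen-high and 4.99 to 21 in Ptprc-detecting cells. How many of the 96 assays had such intervals was not counted. For Vegfa the difference between these classes was 59 percentage points (set A 58, set B 58.6). Vegfa and Ang were the members that met the size rule for shares, a difference of 10 points or more that agreed in sign between the sets, in the higher direction, which 55.2% of the 96 assays also met, and 8.33% met it in the lower direction. The median of all assays was 15.4 points.

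The higher share of Vegfa was also present among cells of high yield. Of the 24 cells that were not collagen-high and detected 36 or more assays, as all collagen-high cells did, 7 detected Vegfa (29.2%, interval 12.6 to 51.1). Below that yield the share outside the collagen-high class was 4 of 30 cells with 10 to 15 assays (13.3%), 23 of 45 with 16 to 23 (51.1%) and 8 of 25 with 24 to 35 (32%). Detection of Vegfa outside the collagen-high class therefore had no steady rise with yield. Detection of Ptprc made little difference within the collagen-high class, where Vegfa was found in 30 of 31 cells with Ptprc and in 14 of 15 without.

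**Figure D1:**
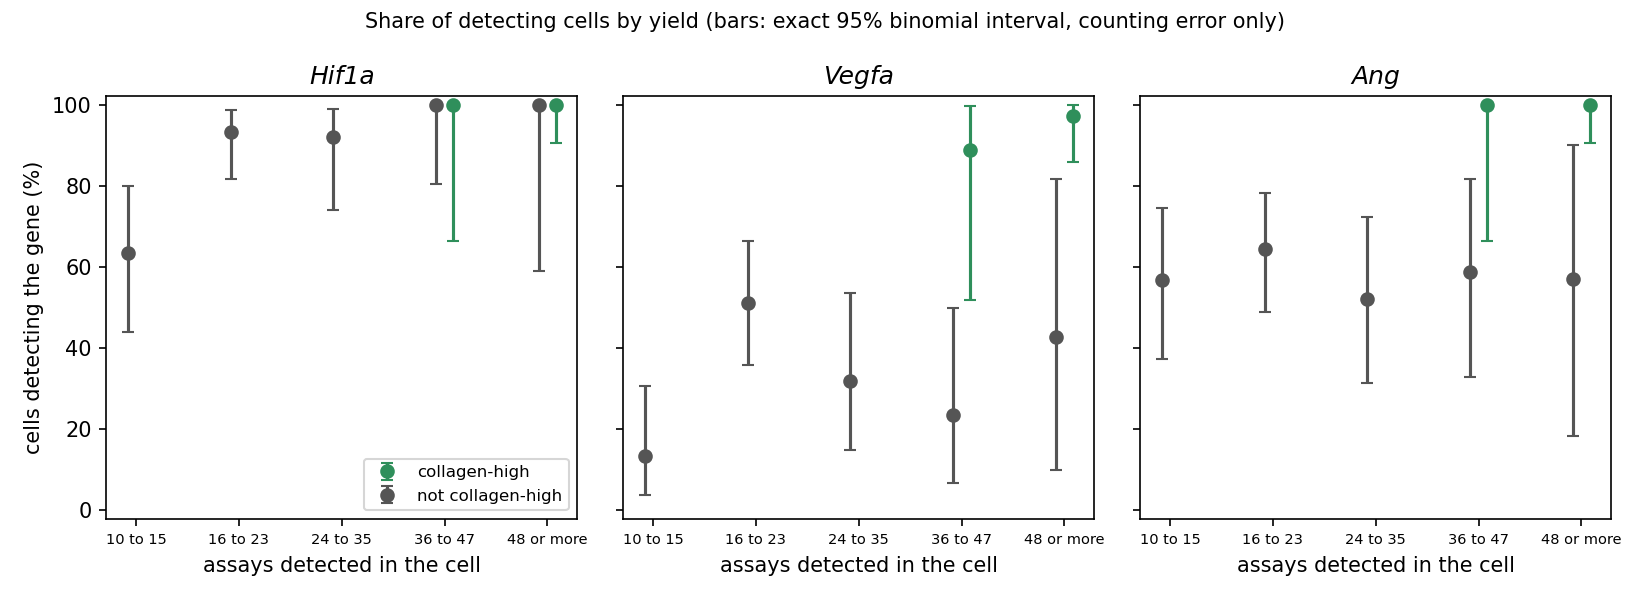
Share of kept cells detecting Hif1a, Vegfa and Ang (percent) against the number of assays detected in the cell, for collagen-high cells (green) and all other cells (grey), with exact 95% binomial intervals. At 48 or more assays, 36 of 37 collagen-high cells detected Vegfa against 3 of 7 other cells, while Hif1a was detected in all of both.

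The level of Vegfa among detecting cells separated the classes less clearly than its share did. The median Ct was 23.93 (SD 2.43) in collagen-high, 25.71 (SD 3.04) in Ptprc-detecting and 25.31 (SD 2.61) in the remaining cells. The first pair differed by -1.78 cycles (set A -1.22, set B -2.12), with ranges of 17.5 to 28.1 and 16.8 to 28.5 that overlapped almost entirely. The sign turned to 0.86 after subtraction of the mean Ct of Actb and B2m, to 0.64 after subtraction of the cell's own median Ct, and to 0.056 among cells with at least 24 assays. Among cells with at least 36 assays it was 3.12, with Vegfa later in collagen-high cells. That value set 6 Ptprc-detecting cells with Vegfa, all of them EKO, against 23 WT and 21 EKO collagen-high cells. Class and recipient cannot be told apart in it. Collagen-high cells thus stood apart in how often Vegfa was found, while the sign of the difference in its level depended on the setting.

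Ang also separated the classes. It was detected in 119 of 170 kept cells (70%, interval 62.5 to 76.8), with a lowest Ct of 14.7, a median of 20.50 and a highest of 35.8. All 46 collagen-high cells detected it, against 40 of 71 Ptprc-detecting cells (56.3%, interval 44.1 to 68.1) and 33 of 53 remaining cells (62.3%). The difference was 43.7 percentage points (set A 38.1, set B 51.7). Yield did not order the share outside the collagen-high class, which was 17 of 30, 29 of 45, 13 of 25, 10 of 17 and 4 of 7 cells from the lowest band of detected assays to the highest.

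The Ct of Ang was narrowly spread in collagen-high cells and broadly in the others. It ran from 16.3 to 21.9 with a median of 18.81 (SD 1.38), whereas Ptprc-detecting cells had a median of 23.83 (SD 5.21) and the remaining cells 21.05 (SD 4.54). Collagen-high cells differed from Ptprc-detecting cells by -5.02 cycles (set A -5.20, set B -4.88). This was -4.23 after subtraction of the mean Ct of Actb and B2m, -3.62 after subtraction of the cell's median, and -5.58 among cells with at least 36 assays. Ang was therefore the member whose class difference in Ct kept its sign under each of these settings.

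All 3 members met the rule of a median Ct at least 1 cycle earlier in collagen-high cells, with the same sign in both sets. Of the 45 assays with enough detecting cells, 48.9% met it, and 4.44% met it as later. The median of those assays was -1.23 cycles. Actb differed by -0.84 and B2m by -0.90.

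Outside the collagen-high class, Ang signals were spread over a wide range of Ct. Of the 40 Ptprc-detecting cells with a signal, 11 lay below Ct 22, 18 between 22 and 28 and 11 at 28 or later. Of the 33 remaining cells with a signal, 19, 7 and 7 lay in those ranges, whereas all 46 collagen-high cells lay below 22. WT held 14 of the cells at 28 or later and EKO held 4. Neither other member had a Ct as late as 30 in any kept cell. With detection set at a Ct below 28, the class difference in share for Ang was 59.2 points in place of 43.7. Whether the late signals came from mRNA, from genomic DNA or from a copy of the gene was not tested.

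**Figure D2:**
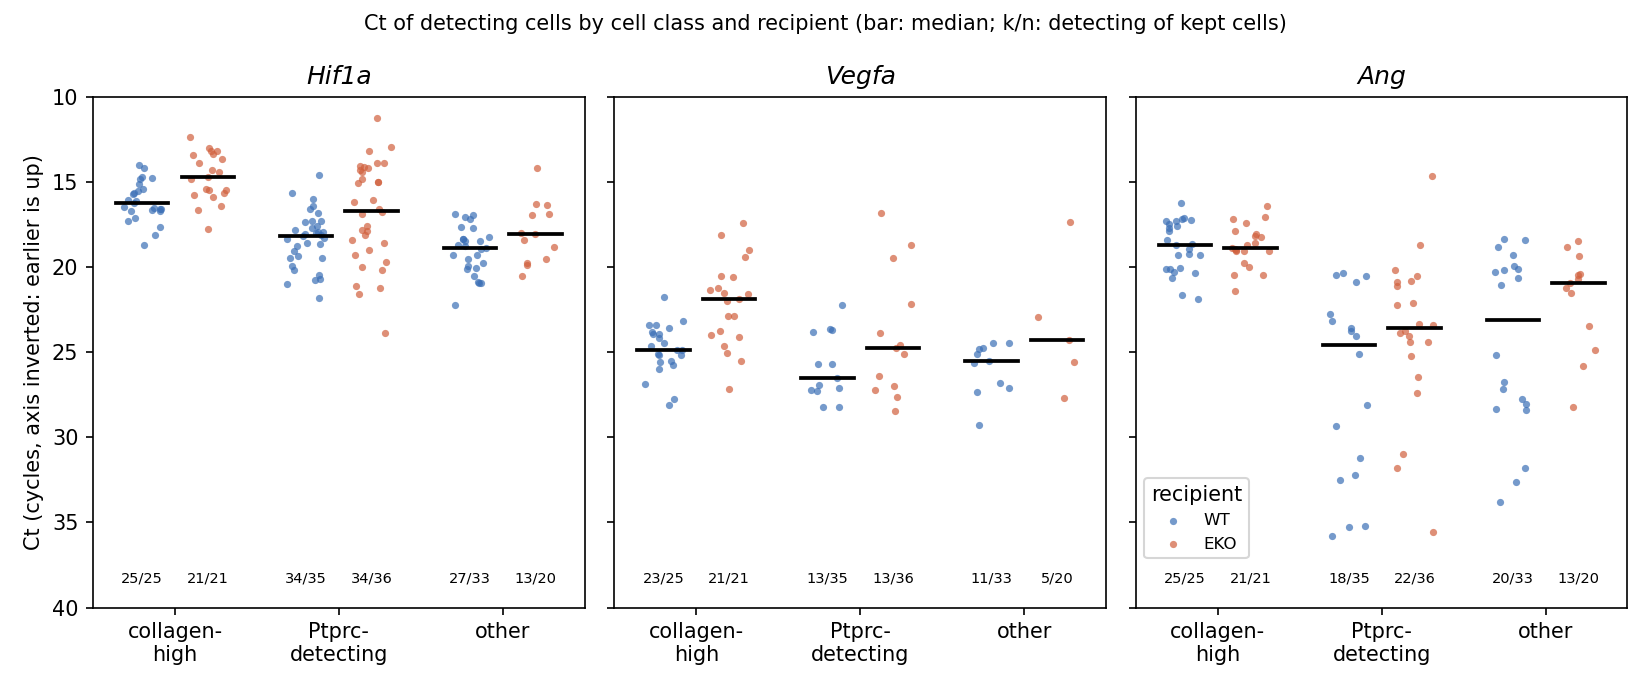
Ct (cycles, axis inverted so that earlier is up) of every kept cell that detected Hif1a, Vegfa or Ang, by class and recipient, WT in blue and EKO in orange; bars are medians and the fractions below give detecting over kept cells. Ang lies between 16.3 and 21.9 in collagen-high cells and reaches 35.8 in the other classes.

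The share of cells with each member differed little by recipient. Hif1a was detected in 86 of 93 WT cells (92.5%, interval 85.1 to 96.9) and 68 of 77 EKO cells (88.3%, interval 78.97 to 94.5). Vegfa was detected in 47 of 93 WT cells (50.5%, interval 39.97 to 61.1) and 39 of 77 EKO cells (50.6%, interval 39.005 to 62.2). Ang was detected in 63 of 93 WT cells (67.7%) and 56 of 77 EKO cells (72.7%). The intervals of the recipients overlapped for each gene.

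None of the 3 members met the size rule for shares, which 20.8% of the 96 assays met as higher in EKO and 0% as lower. The sets even opposed each other for Vegfa, with EKO minus WT at -10.6 points in A and 11.2 in B. For Ang the values were -3.69 and 14.1, and for Hif1a -6.57 and -1.64. Without the filter on cells, Hif1a was found in 86 of 96 WT cells (89.6%) and 70 of 96 EKO cells (72.9%), a difference of -16.7 points, since the cells left out were mostly EKO and 2 of the 22 had Hif1a. With only cells of at least 24 assays the difference for Ang was -11.6 points in place of 4.99.

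In Ct the recipients differed more. Hif1a had a median of 17.98 (SD 1.84) in WT and 16.14 (SD 2.63) in EKO cells, a difference of -1.84 cycles (set A -1.76, set B -2.15). Vegfa had 25.14 (SD 1.68) in WT and 22.92 (SD 3.17) in EKO cells, a difference of -2.23 (set A -0.57, set B -2.26). Ang had 20.45 (SD 5.44) and 20.51 (SD 3.95), a difference of 0.06 with opposite signs in the sets, 0.48 and -0.37. Hif1a and Vegfa therefore read earlier in EKO cells in both sets, and the sign for Ang was not settled.

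Earlier Ct in EKO cells was general to the panel. Of the 47 assays with enough cells, 38.3% were at least 1 cycle earlier over both sets together, with the same sign in each set. As later, 8.51% met this rule, and the median of those assays was -0.84. Actb differed by -1.90 cycles and B2m by -1.31. After subtraction of their mean from each cell's Ct, the difference was -0.77 for Hif1a, -2.48 for Vegfa and -1.33 for Ang. For Ang it was also -0.52 after subtraction of the cell's median Ct and -1.39 with means in place of medians. The Hif1a value thus came closer to 0 when the reference genes were taken off, the Vegfa value did not, and the Ang value turned in sign.

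The collagen-high class allowed recipients to be compared at closer yield, with a median of 51 assays in its 25 WT cells and 53 in its 21 EKO cells. In set A the medians were 51 in WT and 57 in EKO, and in set B 52 and 52.5. In this class 23 of 25 WT cells and 21 of 21 EKO cells had Vegfa. Its Ct ran from 21.8 to 28.1 in WT, with a median of 24.85 (SD 1.48), and from 17.5 to 27.2 in EKO, with a median of 21.86 (SD 2.502). The difference was -2.996 cycles. It was -3.43 over 14 WT and 7 EKO cells of set A, and -1.46 over 9 WT and 14 EKO cells of set B. The ranges overlapped, and 10 of the 21 EKO cells (47.6%) were earlier than the earliest WT cell, 4 of them from A and 6 from B. The median of this share was 9.52% over the 53 assays with at least 10 collagen-high cells of each recipient, and Vegfa stood at place 4 of them.

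Hif1a in the same cells had a median of 16.25 (SD 1.17) in WT, from 14 to 18.7, and of 14.73 (SD 1.41) in EKO, from 12.4 to 17.8. The difference was -1.51 (set A -1.78, set B -1.10), and 8 of 21 EKO cells (38.1%) were earlier than the earliest WT cell. The median over the same 53 assays was 9.52%, and the ribosomal RNA Rn18s had 9 of 21 such cells (42.9%). Ang had a median of 18.73 (SD 1.52) in WT and 18.90 (SD 1.23) in EKO, a difference of 0.17, although each set alone had the opposite sign (set A -0.305, set B -0.376). Of its EKO cells 0 were earlier than the earliest WT cell.

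Within collagen-high cells, Hif1a and Vegfa met the rule of at least 1 cycle earlier, with the same sign in both sets. Of the 48 assays with enough cells, 33.3% met it, and 8.33% met it as later. The median of those assays was -0.65. Ranked from the earliest in EKO, Vegfa was at place 4, Hif1a at 10 and Ang at 41 of 48. Actb differed by -0.84, B2m by 1.02 and the ribosomal RNA Rn18s by -0.90, so the reference assays did not move together. After subtraction of the mean of Actb and B2m the differences were -1.64 for Hif1a and -2.71 for Vegfa, and after subtraction of the cell's median Ct they were -1.001 and -2.08. The comparison within this class was added with the data known. Per the labels, WT cells carry the lower cell numbers of each chip and EKO cells the higher, so recipient, cell number and joined pair cannot be told apart.

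**Figure D3:**
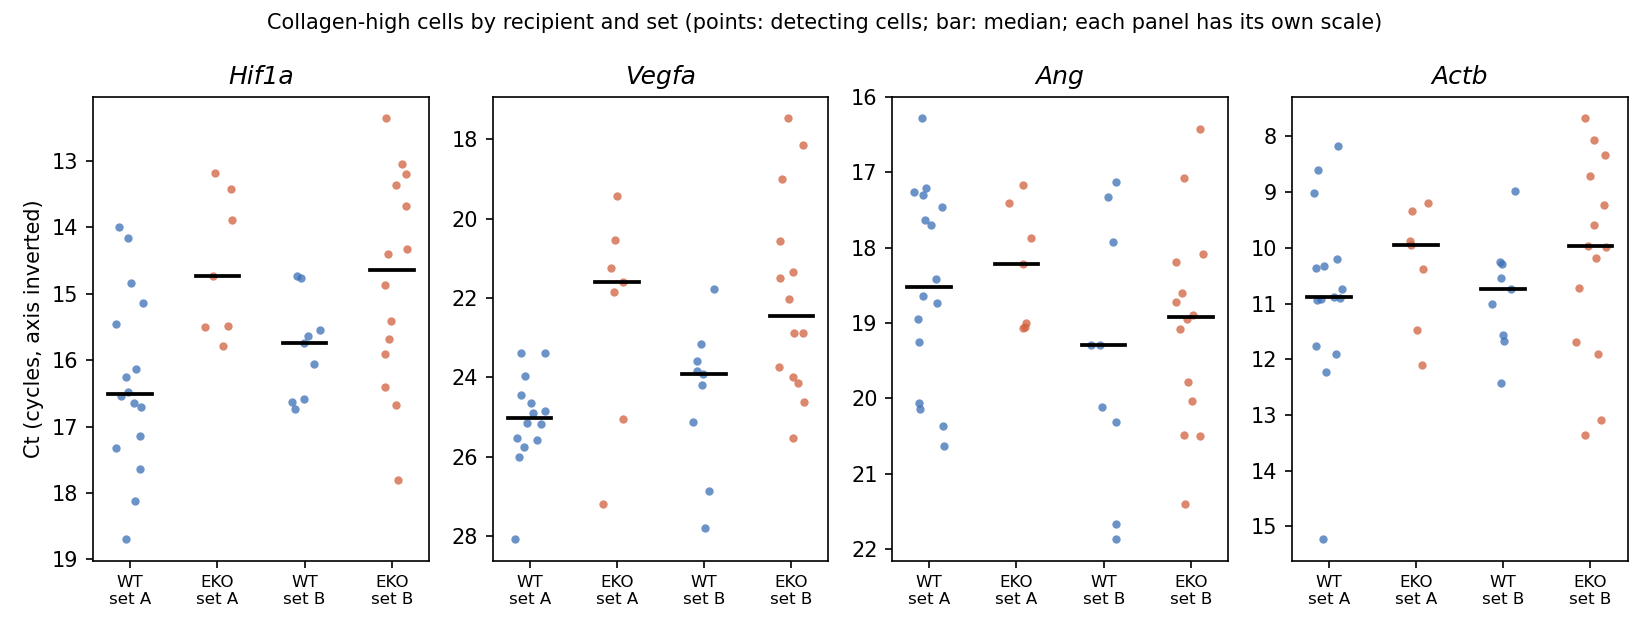
Ct (cycles, axis inverted) of Hif1a, Vegfa, Ang and the reference gene Actb in collagen-high cells, by recipient and set; points are detecting cells, bars are medians, and each panel has its own scale. EKO minus WT for the Vegfa median was -3.43 cycles in A and -1.46 in B.

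**Figure D4:**
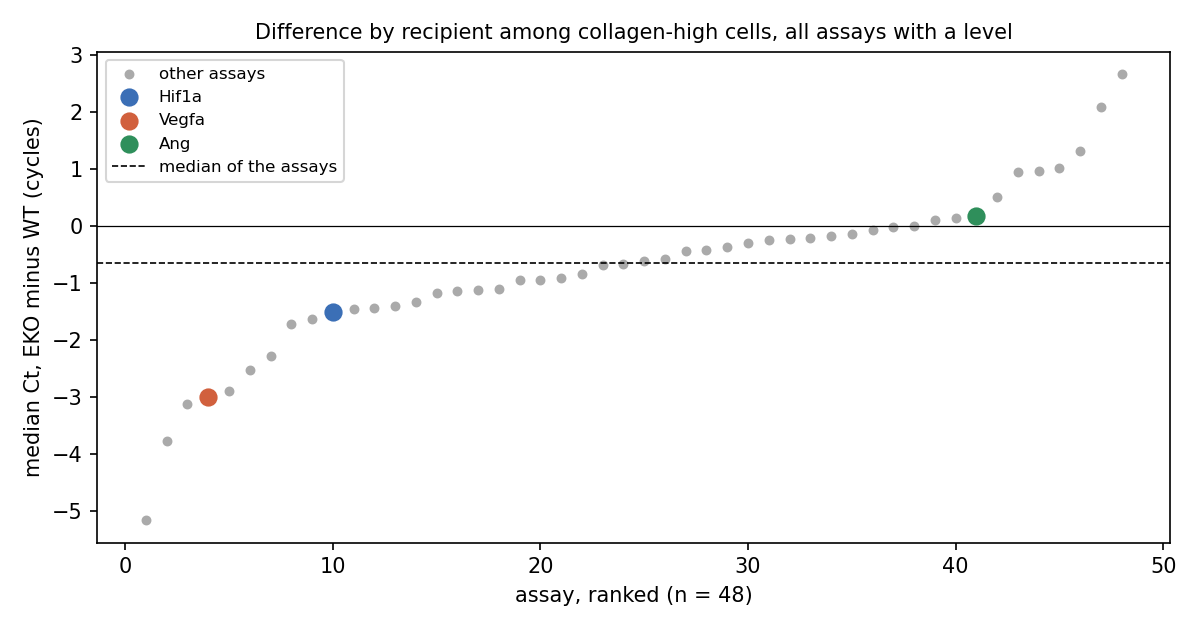
Median Ct of EKO minus WT collagen-high cells (cycles) for each of the 48 assays with enough detecting cells, ranked, with Hif1a, Vegfa and Ang coloured and the dashed line at the median of the assays, -0.65. Vegfa stands at -2.996, Hif1a at -1.51 and Ang at 0.17.

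Among Ptprc-detecting cells the yields were less alike, with a median of 21 assays in 35 WT and 30.5 in 36 EKO cells. Vegfa was present in 13 of 35 WT cells (37.1%) and in 13 of 36 EKO cells (36.1%). Its median Ct was 26.50 in WT and 24.77 in EKO, and the sets opposed each other, with EKO minus WT at 0.61 in A and -2.62 in B. Hif1a had medians of 18.17 in WT and 16.72 in EKO, with EKO minus WT at -1.93 in A and -1.89 in B. Ang was present in 18 of 35 WT cells (51.4%) and in 22 of 36 EKO cells (61.1%), at medians of 24.58 and 23.61.

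Hif1a alone met the rule on Ct in this class, which 37.9% of 29 assays met as earlier and 3.45% as later. Actb differed by -1.86 and B2m by -3.08 in the same cells. None of the members met the rule on shares, which 35.4% of assays met as higher in EKO and 2.08% as lower.

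The earliest Vegfa signals were in EKO cells. Of the 39 EKO cells with Vegfa, 14 (35.9%) were earlier than the earliest of the 47 WT cells, at Ct 21.8, and they comprised 10 collagen-high, 3 Ptprc-detecting and 1 other cell. The 14 cells were split as 5 from A and 9 from B, and all 14 detected Hif1a. For Hif1a the count was 13 of 68 EKO cells (19.1%) and for Ang 1 of 56 (1.79%). The median over the 68 assays with at least 10 cells of each recipient was 6.09%, and Vegfa stood at place 5 of them.

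Among high-yield cells outside the collagen-high class, those with Vegfa were EKO cells, a pattern picked out after the values were seen. Of the 24 such cells with at least 36 assays, 9 were WT and 15 EKO. Vegfa was detected in 7 of the 15 EKO cells (46.7%, interval 21.3 to 73.4) at Ct 16.8, 17.4, 18.7, 19.5, 22.2, 26.4 and 28.5. In the 9 WT cells it was detected in 0, where the limit of 3 counts gives a share up to 33.3% and the exact interval ends at 33.6%. The intervals of the recipients overlapped, and no test was made over cells. The EKO cells of this kind had a median of 47 assays and the WT cells 39. Cell make-up differed as well. Outside the collagen-high class, 8 cells detected at least 4 of the 6 endothelial markers, and 7 of these were EKO. Vegfa was detected in 3 of these 8 cells, and how far make-up bears on the counts by recipient was not tested. The cell at 16.8 was also the earliest of all for Hif1a (11.3) and Ang (14.7), and it detected 70 assays, with 6 of 6 endothelial and 5 of 5 leukocyte markers.

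The members were detected together mainly in collagen-high cells, the class in which each of them alone was also found most often. All 3 were found in 44 of 46 collagen-high cells (95.7%), in 14 of 71 Ptprc-detecting cells (19.7%) and in 8 of 53 remaining cells (15.1%). Over all kept cells the full set was found in 66, Hif1a with Ang in 44, Hif1a alone in 27 and Hif1a with Vegfa in 17. Vegfa without Hif1a was rare, at 3 of 86 Vegfa-positive cells, but Hif1a was also found in 84.5% of the cells without Vegfa. Vegfa was found in 53.9% of the 154 cells with Hif1a and in 3 of the 16 without. Of those 16 cells, 13 lay in the remaining class, which had the fewest detected assays. Among Ptprc-detecting cells the order was opposite, with Vegfa in 35.3% of the cells with Hif1a and in 2 of the 3 without. Outside the collagen-high class detection of Ang differed little with that of Vegfa: it was found in 57.1% of the 42 cells with Vegfa and in 59.8% of the 82 without.

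Over cells that detected both, Ct of Hif1a and Vegfa had a Spearman correlation of 0.53 and a Pearson r of 0.57 (n = 83 cells), with values of 0.40 in A and 0.60 in B. For Hif1a and Ang the rank correlation was 0.45 and r 0.34 (n = 110), and for Vegfa and Ang 0.40 and 0.38 (n = 68). These cells share a chip, a sort and a yield, and no p was computed. Within the collagen-high class the rank correlation was 0.38 for Hif1a and Vegfa, 0.25 for Hif1a and Ang and 0.14 for Vegfa and Ang. Outside that class the values were 0.41 (n = 39), -0.13 (n = 64) and 0.45 (n = 24).

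Yield ran beside each of these. The rank correlation with the number of detected assays was -0.76 for the Ct of Hif1a, -0.48 for Vegfa and -0.50 for Ang. After subtraction of each cell's median Ct, the rank correlation was 0.19 for Hif1a and Vegfa, -0.030 for Hif1a and Ang and 0.071 for Vegfa and Ang. After subtraction of the mean Ct of Actb and B2m instead, the values were 0.51, 0.38 and 0.29. How much of each relation remained thus depended on what was taken as the level of the cell.

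**Figure D5:**
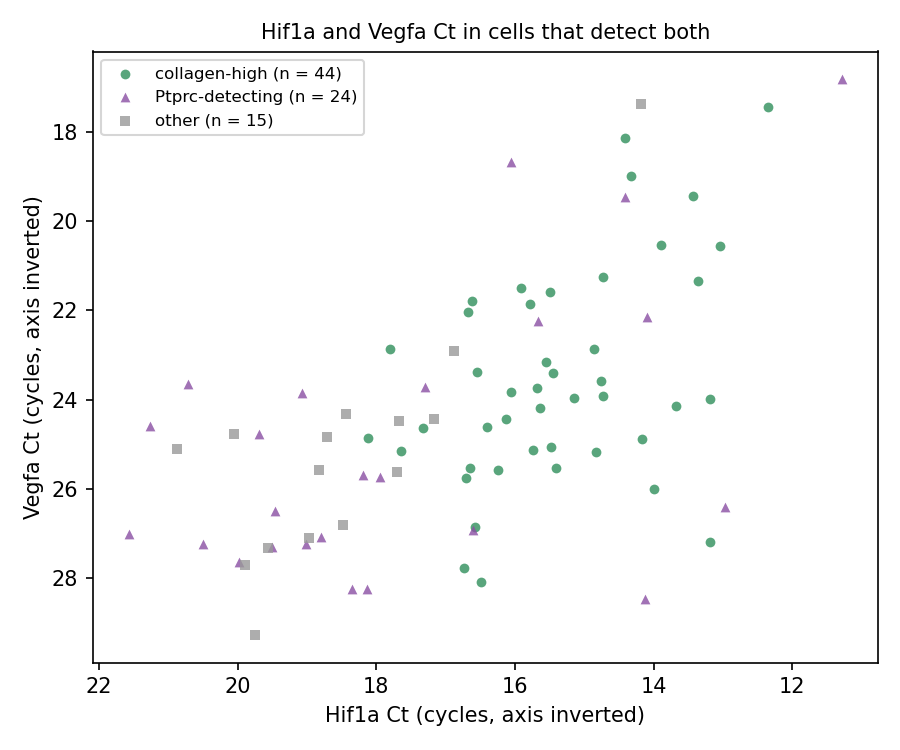
Vegfa Ct against Hif1a Ct (cycles, both axes inverted) in the 83 cells that detected both, with the 44 collagen-high, 24 Ptprc-detecting and 15 other cells marked by shape and colour. Cells with earlier Hif1a tended to have earlier Vegfa (rank correlation 0.53), with wide scatter in each class.

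The assays whose Ct was most like that of Hif1a were those of Cd44, a hyaluronan receptor (rank correlation 0.77, n = 133 cells), Ly6a, which encodes the progenitor antigen SCA-1 (0.76, n = 138), Nfkb1, a subunit of NF-kappa-B (0.74, n = 134), Itga5, the fibronectin receptor's alpha chain (0.74, n = 62), and Fgfr1, a fibroblast growth factor receptor (0.73, n = 80). The median over the 57 assays with at least 30 shared cells was 0.43. For Vegfa they were Itga5 (0.62, n = 49), Notch1 (0.59, n = 32), Cd44 (0.58, n = 80), Igf1 (0.55, n = 33) and Nfkb1 (0.53, n = 79), against a median of 0.32 over 48 assays. The ribosomal RNA Rn18s and the other members were left out of these top 5, and Rn18s itself had 0.62 with Hif1a, 0.54 with Vegfa and 0.27 with Ang. Hif1a and Vegfa thus had Cd44, Itga5 and Nfkb1 in common among the 5 named for each. After subtraction of each cell's median Ct, those 3 had 0.42, 0.51 and 0.37 with Hif1a. With Vegfa they had 0.17, 0.48 and 0.21.

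The 5 named for Ang shared Fgfr1 with those of Hif1a and none with those of Vegfa. They were Timp2, an inhibitor of matrix metalloproteinases (0.76, n = 75), Fgfr1 (0.69, n = 66), and the fibrillar collagens Col1a2 (0.68, n = 70), Col3a1 (0.65, n = 75) and Col1a1 (0.62, n = 65). The median over 53 assays was 0.31. Outside the collagen-high class those values were 0.19 for Timp2, 0.17 for Fgfr1, 0.27 for Col1a2, -0.10 for Col3a1 and -0.06 for Col1a1. Within the collagen-high class they were 0.36, 0.53, 0.42, 0.46 and 0.42. Each was thus lower inside either group of cells than over all kept cells.

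Other genes known as HIF targets stood close to the whole panel. Of the 21 assays for 20 such genes, 13 met the size rule as higher in collagen-high cells and 1 as lower, beside 55.2% and 8.33% of all 96 assays, with a median of 21.5 points against 15.4 for all 96 assays. Timp1, an inhibitor of matrix metalloproteinases, was detected in 97.8% of collagen-high and 11.3% of Ptprc-detecting cells, and Ackr3, a scavenging receptor of CXCL12, in 95.7% and 8.45%. Myc, a growth regulator, was detected in 93.5% and 29.6%, and Eng, a co-receptor of TGF-beta, in 76.1% and 18.3%. The 1 lower gene, named after its values were seen, was Cxcr4, the signalling receptor of CXCL12, at 30.4% and 49.3%. By recipient, 4 of the 21 assays were higher in EKO and 0 lower, beside 20.8% and 0% of all assays, with a median of 6.80 points against 5.70 for all assays.

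Of the receptors of VEGF, Kdr, the main signalling receptor, was detected in 28.3% of collagen-high and 8.45% of Ptprc-detecting cells, and Flt1, a high-affinity receptor that also acts as a decoy, in 6.52% and 9.86%. In the remaining cells each receptor was detected in 7.55%, so both were found in a minority of every class. Of the 12 genes listed as partners or regulators of HIF, 2 were on the panel: Nfkb1 was detected in 100% of collagen-high and 88.7% of Ptprc-detecting cells, and Pik3r1, a regulatory subunit of PI3 kinase, in 86.96% and 59.2%. Of the 4 listed partners of angiogenin, the panel held Actb alone.

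Among 13 assays for 12 other secreted angiogenic factors, 8 met the size rule as higher in collagen-high cells and 0 as lower, beside the same 55.2% and 8.33% of all assays, with a median of 25.6 points against 15.4. Igf1, an insulin-like growth factor, was detected in 67.4% of collagen-high and 5.63% of Ptprc-detecting cells, and the Notch ligand Jag1 in 63.04% and 15.5%. Fgf2, a fibroblast growth factor, was detected in 58.7% and 7.04%, and the Cxcl12 assay Mm00457276_m1 in 45.7% and 0%, while the other Cxcl12 assay was at 100% in both. Vegfa, at 95.7% and 36.6%, and Ang, at 100% and 56.3%, were found in more cells of both classes than Igf1, Jag1 and Fgf2 were. Those genes were named for their large difference between the classes. Tgfb1, from the same list, was detected in 93.5% of collagen-high and 80.3% of Ptprc-detecting cells. In Ptprc-detecting cells it was thus found more often than Vegfa or Ang.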

How the data were processed

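Single cells were assayed by TaqMan quantitative PCR with 96 assays, per the labels. The authors deposited 1 table of values that names no unit; raw Ct was assumed, because the lowest is 4.49 and none exceeds 40. The sources used here do not give the instrument software, threshold or preamplification. Gene names were matched to a RefSeq table of GRCm38.p6 (88 by symbol, 5 by synonym, 3 kept as written), and promoters came from RefSeq on that build.

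Cells detecting at least 10 assays below Ct 40 were kept. Shares carry exact 95% intervals, and Ct medians were taken over detecting cells. A difference was counted at 10 percentage points, or 1 cycle, with the same sign in both sets. Levels needed 10 detecting cells per genotype and set, or 5 per class and set. Likeness was Spearman's correlation over at least 30 cells, and the 5 highest assays were named, leaving out Rn18s and the other members; from each list, up to 4 assays of largest difference between classes. Members and lists were chosen with earlier results of these data known. Alternatives changed the filter, detection limit, reference genes, summary and classes. Where a cell detected only Actb or only B2m, that Ct stood for their mean. Scripts used Python 3.11.15, NumPy 2.4.6, pandas 2.3.3, SciPy 1.17.1 and Matplotlib 3.10.9 and were tested on simulated data.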

Additional observations from a re-analysis of the deposited data

How the results depend on the processing

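Of 195 alternative values for 18 results, 6 reversed, 16 moved and 173 stayed within tolerance, which was the 95% interval of the difference for shares, 1 SD over cells for Ct and 0.1 for correlations; causes were not tested. Among the 173, the sign turned in 16, all for differences by recipient that had not met the size rule (shares of Vegfa and Ang, Ct of Ang). Shares by recipient moved for Hif1a without the cell filter (-16.7 points) and for Ang with at least 24 assays (-11.6). Shares by class moved for Vegfa with all Ptprc-detecting cells against collagen-high cells without Ptprc (38.4) and when weighted by terciles of yield (39.3), and for Ang with detection below Ct 28 (59.2) or 30 (56.3). Class differences in Ct reversed for Hif1a after subtraction of Actb and B2m (0.033) and with at least 36 assays (0.53), and for Vegfa after that subtraction (0.86), after subtraction of the cell median (0.64), with at least 24 assays (0.056) and with at least 36 (3.12). With failed reactions at 40 they were -16.0 for Vegfa and -13.7 for Ang. The rank correlation of Hif1a and Vegfa was 0.19 after subtraction of the cell median, 0.37 with at least 24 assays and 0.40 in set A. For Hif1a and Ang, Pearson's r was 0.34 and the rank correlation after subtraction of the cell median -0.030. For Vegfa and Ang, the rank correlation was 0.29 after subtraction of Actb and B2m, 0.071 after subtraction of the cell median and 0.22 with at least 24 assays. The settings at 36 assays and the comparison within collagen-high cells were chosen after seeing the data. No paired analysis was possible because the labels give cells no number that pairs WT with EKO. Absence at Ct 40 depends on yield, which limits shares in cells with few detected assays.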
